A study of Mus musculus with 12 samples.

Results

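The constitutive proteasome subunits are the genes that encode the standard form of the proteasome, and their transcripts were followed in the mouse melanoma cell line B16F10. They were taken as every gene symbol in the deposited files made of Psma, Psmb, Psmc or Psmd and a number, apart from Psmb8, Psmb9 and Psmb10, which encode the catalytic subunits of the immunoproteasome. This gave 36 of 24421 gene symbols, spread over 16 chromosomes. Control cells received the vehicle DMSO alone. DAC cells received 5-aza-2'-deoxycytidine at 25 nM for 72 h, an inhibitor of DNA methylation. SFN cells received sulforaphane, an isothiocyanate of cruciferous vegetables, for the last 48 h, and DAC + SFN cells received both drugs over the same hours. The study's methods give 5 µM SFN in both arms, while the labels give 5 nM for the single treatment and 5 µM for the combination. By the labels, the SFN dose would therefore differ between these arms. The labels give 0.025% DMSO for control wells, while the study's methods give a much lower percentage for DMSO wells. All 4 groups are the same unmodified cell line, with 3 biological repeats each, and no normal melanocytes were included. Poly(A) RNA was sequenced, and the deposited values are whole counts of reads per gene.

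The proteasome degrades proteins that carry a chain of ubiquitin. Its 20S core is a barrel of stacked rings: the outer rings are built from alpha subunits (Psma genes) and gate the entry, and the inner rings are built from beta subunits (Psmb genes), of which Psmb5, Psmb6 and Psmb7 hold the active sites. The 19S regulatory particle caps the core. Its ATPases (Psmc genes) unfold and thread the substrate, and its non-ATPase subunits (Psmd genes) bind and remove ubiquitin. Psmd5, Psmd9 and Psmd10 encode chaperones that assist assembly of the 19S base and do not stay in the finished particle. When proteasome activity falls, the transcription factor NFE2L1 is known to raise the subunit genes together, and NFE2L2, the factor that SFN is known to activate, binds related antioxidant response elements.

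Between 15880957 and 27291436 counts per sample were available. The test covered the 11638 genes that reached 1 CPM (1 count per 1000000 counts of a library) in 3 or more of the 12 libraries, and 34 of the 36 subunit genes were among them. Their mean level over the libraries was between 21.7 and 512 CPM. Psma8, the testis form of an alpha subunit, had 0 counts in every library. Psmb11, the catalytic subunit of cortical thymic epithelium, had 1, 1 and 3 counts in the control libraries, 3, 7 and 8 counts in those of DAC, 4, 4 and 3 counts in those of SFN, and 0, 0 and 6 counts in those of the combination. Neither was tested, and the tested genes were 31 subunits of the standard particle and the 3 assembly chaperones. The melanocyte markers Pmel, Tyrp1, Dct, Tyr, Mlana, Mitf and Sox10 summed to between 21417 and 30155 CPM, and the keratinocyte markers to at most 0.0901 CPM.

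The levels of the subunits were uneven when divided by transcript length. In control, Psmd8, a lid subunit, had the highest level with 300.3 ± 49.3 CPM per kb (SD, n = 3), followed by Psmb3 with 229 ± 12.6 and Psmb6 with 213 ± 13.8 CPM per kb. The ranges of mean ± SD overlapped for Psmb3 and Psmb6. The 3 assembly chaperones were the lowest of the tested genes, with 16.7 ± 0.933 CPM per kb for Psmd5, 16.6 ± 1.5 for Psmd10 and 16.0 ± 1.53 for Psmd9, and they did not differ beyond their spread. Among the active-site subunits, Psmb5 had 89.4 ± 6.74 CPM per kb in control, below Psmb7 with 174 ± 4.54 and Psmb6. The lengths were those of principal GENCODE transcripts, and which transcript the cells use was not measured.

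With DAC + SFN, most subunit transcripts were lower than in control by a small amount. Of the 34 tested genes, 24 were lower compared to control and 0 were higher at an adjusted p-value under 0.05 (edgeR's quasi-likelihood F-test), 70.6% of the subunits where 14.7% of all tested genes were lower. The estimate was below 0 for 33 of 34 subunits (48.6% of all genes), and the median log2 fold change was −0.18, a level 11.8% lower, where the median of all genes was 0.0078. No subunit passed the 2-fold threshold that the study uses, which 2.66% of all genes passed here. Nor did any with DAC (0.0344% of all genes), with SFN (1.28%), or with DAC + SFN compared to DAC (0.928%) or to SFN (0.112%). In a model without the replicate block, 9 subunits were lower, and with only the samples of these groups, 14. Without control replicate 2, 10 were lower, without control replicate 1, 14, and without DAC + SFN replicate 1, 15. Without all 4 samples of replicate 1 or of replicate 2, 6 and 8 were.

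With SFN alone, 6 of 34 subunits were lower and 0 higher, 17.6% where 5.65% of all genes were lower, and 13.9% were called in either direction. These were Psmd1, Psmd3, Psmd4 and Psmd11 of the 19S non-ATPases, the ATPase Psmc3 and the alpha subunit Psma1. The median log2 fold change was −0.12, with 32 of 34 estimates below 0 (49.0% of all genes). This count was sensitive to single libraries: 1 to 3 subunits were called without SFN replicate 2 (1), control replicate 2 (2), or control replicate 1, SFN replicate 1 or SFN replicate 3 (3 each), and 0 without the replicate block or without all samples of replicate 1 or 2. It was 11 without all samples of replicate 3, and 12 with a correction for GC content. With DAC alone, 0 of 34 subunits were called in either direction, where 0.180% of all genes were called. Their median log2 fold change was −0.016 with DAC, with 24 estimates below 0 (48.1% of all genes), and 1 of 34 had an unadjusted p-value under 0.05, where 10.1% of all genes did. DESeq2 called 0 with DAC as well.

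**Figure D1:**
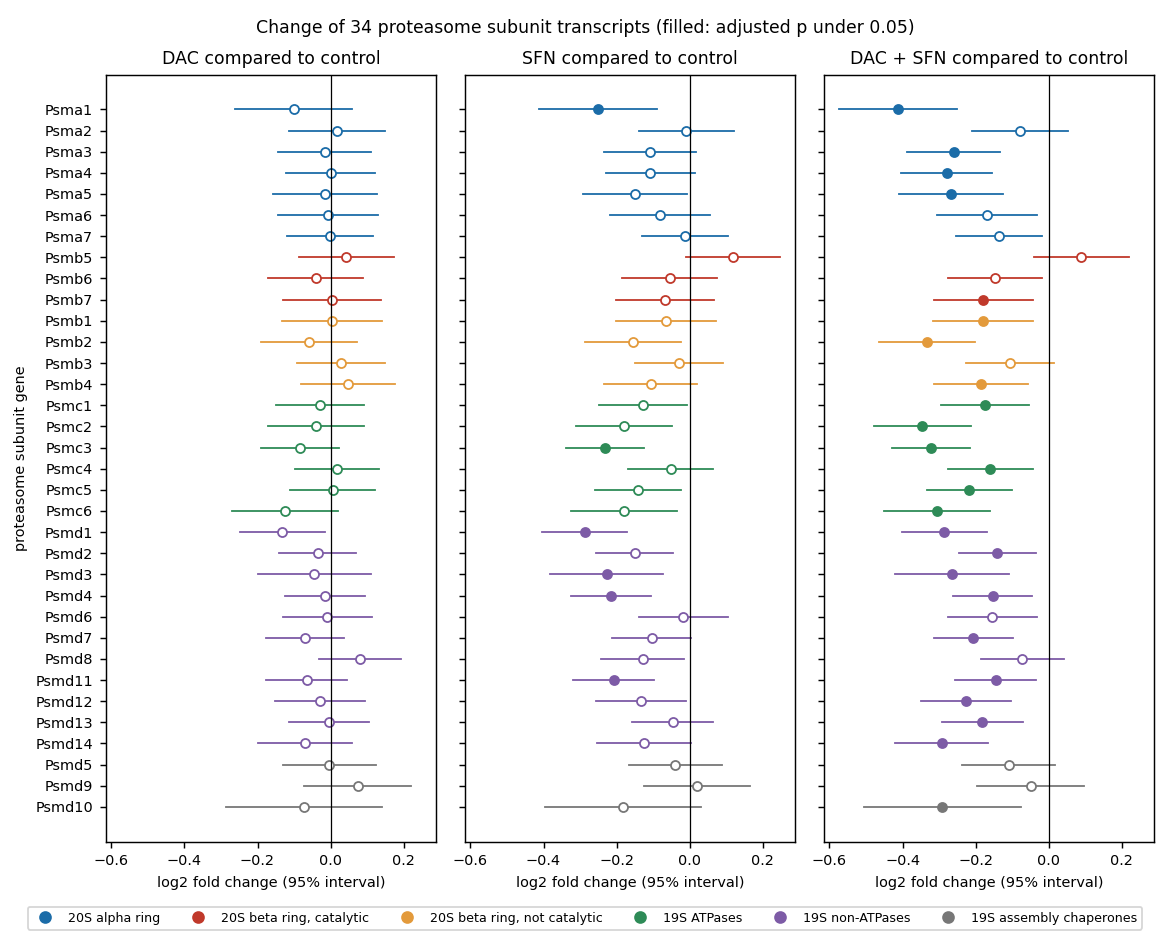
Log2 fold change of each of the 34 tested subunit genes (rows, coloured by role) with DAC, SFN and DAC + SFN compared to control. Points are estimates from 3 replicates a group, lines are 95% intervals, and filled points have an adjusted p-value under 0.05. There are 0 filled points with DAC, 6 with SFN and 24 with DAC + SFN, and all filled points lie below 0.

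The replicate pairs showed the same order. The median log2 difference of the 34 subunits between treated and control samples of the same replicate number was 0.013, −0.071 and 0.0032 in replicates 1, 2 and 3 with DAC. With SFN it was −0.13, −0.17 and −0.040, and with DAC + SFN it was −0.20, −0.24 and −0.13. Replicate 3 had the smallest fall with either treatment that held SFN. With DAC + SFN, 30 of 34 subunits were lower in all 3 pairs, where 26.1% of all genes were, and with SFN 22 of 34, where 23.8% of all genes were. All 3 DAC + SFN values lay below all 3 control values for 18 subunits (14.3% of all genes), and all 3 SFN values for 11 (9.93% of all genes).

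Summed over the tested and untested subunits, the transcripts made up 0.666% ± 0.0308 (SD, n = 3) of all counts of control libraries, 0.661% ± 0.00653 of DAC libraries, 0.605% ± 0.0189 of SFN libraries and 0.582% ± 0.0271 of DAC + SFN libraries. The 14 tested genes of the 20S core summed to 2245, 2428 and 2301 CPM in control replicates 1, 2 and 3, to 2312, 2308 and 2312 CPM with DAC, to 2089, 2212 and 2285 CPM with SFN, and to 1891, 2131 and 2075 CPM with DAC + SFN. All 3 sums with DAC + SFN were below those of control and of DAC, and the sums with SFN overlapped those of control. The 17 Psmc and Psmd genes of the 19S particle summed to 4071, 4565 and 4016 CPM in control, to 4023, 4304 and 4013 CPM with DAC, to 3663, 3918 and 3743 CPM with SFN, and to 3552, 3813 and 3608 CPM with DAC + SFN. For the 19S particle, the sums with SFN and with DAC + SFN were both below all control and DAC sums. These are shares of the RNA, and less RNA per cell cannot be told apart from more RNA of other genes.

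**Figure D2:**
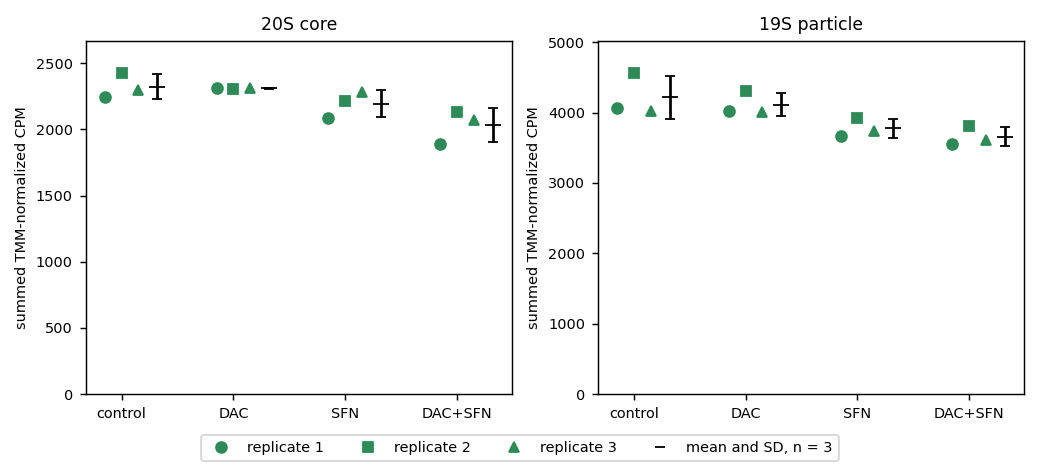
Summed level of the 14 genes of the 20S core (left) and the 17 genes of the 19S particle (right) in TMM-normalized CPM, not divided by transcript length, in every sample. Symbols are replicates, and the black marks are mean and SD of 3 samples. The 19S mean was 4217 CPM in control, 3774 with SFN and 3658 with DAC + SFN, and the 20S mean was 2324 CPM in control, 2195 with SFN and 2032 with DAC + SFN.

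The 19S ATPases were lower as a whole group with DAC + SFN. All 6 were called, where 14.7% of all genes were lower, with a median log2 fold change of −0.26. Psmc3, the subunit Rpt5, lies on chromosome 2 from 91054009 to 91066369 in mm10. Its levels in replicates 1, 2 and 3 were 277, 321 and 266 CPM in control, 264, 289 and 261 CPM with DAC, 239, 258 and 237 CPM with SFN, and 227, 245 and 218 CPM with DAC + SFN. Every SFN and DAC + SFN value was below every control value, and replicate 2 was the highest in each group. The log2 fold change was −0.32 with DAC + SFN (SE 0.050, adjusted p = 0.000290), the smallest adjusted p-value among the subunits, and −0.23 with SFN (adjusted p = 0.00668). The call with SFN was lost without control replicate 2 or SFN replicate 2. Psmc2, the subunit Rpt1, had 216, 228 and 211 CPM in control, 222, 202 and 214 CPM with DAC, 199.6, 184 and 196 CPM with SFN, and 165, 166 and 185 CPM with DAC + SFN. The DAC + SFN values were below all values of the other groups but for SFN replicate 2, and the SFN values were below those of control without passing the test. Its log2 fold change was −0.35 with DAC + SFN (adjusted p = 0.000836), a level 21.3% lower, and −0.18 with SFN (adjusted p = 0.0669). The other 4 ATPases had log2 fold changes from −0.31 (Psmc6) to −0.16 (Psmc4) with DAC + SFN.

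**Figure D3:**
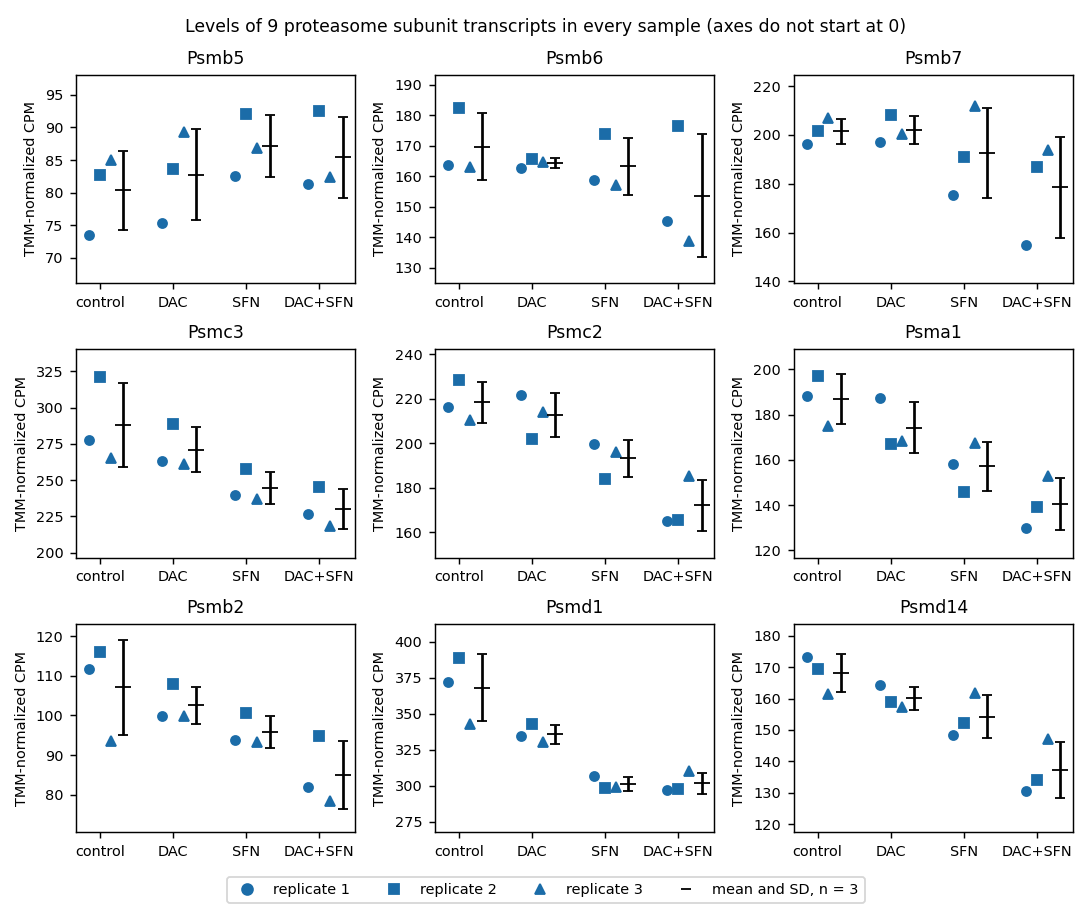
TMM-normalized CPM of 9 subunit genes in each of the 12 samples, on axes that do not start at 0. Symbols are replicates, and the black marks are mean and SD of 3 samples. Psmc3, Psmc2, Psma1, Psmb2, Psmd1 and Psmd14 had lower means with DAC + SFN than in control, and the mean of Psmb5 was 80.4 CPM in control and 85.4 CPM with DAC + SFN.

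The 19S non-ATPase subunits were lower in 9 of 11 genes with DAC + SFN, all except Psmd6 and Psmd8, where 14.7% of all genes were. Their median log2 fold change was −0.18. Psmd1 encodes Rpn2, one of the largest subunits and a scaffold of the base. Its levels were 372, 389 and 343 CPM in control, 334, 343 and 330.0 CPM with DAC, 307, 298 and 299 CPM with SFN, and 297, 297 and 310 CPM with DAC + SFN. The SFN and DAC + SFN values overlapped each other and lay below all DAC values, which themselves did not reach above the lowest control value. The log2 fold change was −0.29 with SFN (adjusted p = 0.00276) and −0.29 with DAC + SFN (adjusted p = 0.00127), and −0.13 with DAC (adjusted p = 0.422). Psmd14 encodes Rpn11, the deubiquitinase that cuts the ubiquitin chain from a substrate. It had 173, 169 and 161 CPM in control, 164, 159 and 157 CPM with DAC, 149, 152 and 162 CPM with SFN, and 130, 134 and 147 CPM with DAC + SFN. The DAC + SFN values lay below all values of the other 3 groups. The log2 fold change was −0.29 with DAC + SFN (adjusted p = 0.00207) and −0.13 with SFN (adjusted p = 0.181). Psmd4, a receptor for ubiquitin, and Psmd11 had lower estimates with SFN, −0.22 and −0.21, than with DAC + SFN, −0.15 and −0.15. All of these passed the test, and neither gene was called between SFN and DAC + SFN.

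The alpha ring held the subunit with the lowest estimate. Psma1 (chromosome 7 from 114264606 to 114276118 in mm10) had 188, 197 and 175 CPM in control, 187, 167 and 168 CPM with DAC, 158, 146 and 168 CPM with SFN, and 130, 139 and 153 CPM with DAC + SFN. The levels stepped down from control to SFN and to DAC + SFN, with overlap between SFN and DAC + SFN but not between either and control. The estimate was a log2 fold change of −0.41 with DAC + SFN (SE 0.076, adjusted p = 0.000993), a level 24.8% lower, and −0.25 with SFN (adjusted p = 0.0380). The call with SFN was lost without control replicate 1 or 2 or SFN replicate 1 or 2. Psma3, Psma4 and Psma5 were lower as well with DAC + SFN, with log2 fold changes of −0.26, −0.28 and −0.27. Psma2, Psma6 and Psma7 had estimates of −0.079, −0.17 and −0.14 and did not pass. In all, 4 of the 7 tested alpha genes were lower, where 14.7% of all genes were.

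Of the 7 tested beta subunits, 6 had an estimate below 0 with DAC + SFN, and differences between them were not tested. Of the 4 without an active site, Psmb1, Psmb2 and Psmb4 were lower, where 14.7% of all genes were. Psmb3 had an estimate of −0.11 that did not pass. Psmb2 had 112, 116 and 93.5 CPM in control, 99.9, 108 and 99.8 CPM with DAC, 93.8, 100.5 and 93.4 CPM with SFN, and 82.1, 94.7 and 78.4 CPM with DAC + SFN. The lowest control value, replicate 3, lay within the range of DAC + SFN, while within each replicate pair DAC + SFN was lower. The log2 fold change was −0.33 (adjusted p = 0.00106).

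Of the 3 active-site subunits, only Psmb7 was called compared to control, with DAC + SFN. Psmb7, with the trypsin-like site, had 196, 201 and 207 CPM in control, 197, 208 and 200.3 CPM with DAC, 175, 191 and 212 CPM with SFN, and 155, 187 and 194 CPM with DAC + SFN. The 3 DAC + SFN values lay just below control, with replicate 1 the farthest, and the log2 fold change was −0.18 (adjusted p = 0.0423). This call was lost in 5 of 9 fits with samples left out, with an estimate of −0.10 without replicate 1, and also without TMM, without the replicate block, with only these groups, and with corrections for GC content, length or level. Psmb6, with the caspase-like site, had 163, 182 and 163 CPM in control, 163, 166 and 165 CPM with DAC, 159, 174 and 157 CPM with SFN, and 145, 177 and 139 CPM with DAC + SFN. Its groups overlapped, and the log2 fold change with DAC + SFN was −0.15 (95% interval −0.28 to −0.018, adjusted p = 0.0760). It passed with the GC correction (−0.18) and without DAC + SFN replicate 2 (−0.22). Psmb5 (chromosome 14 from 54614119 to 54618022 in mm10) has the chymotrypsin-like site, the main target of proteasome inhibitors. It had 73.5, 82.7 and 84.9 CPM in control, 75.3, 83.6 and 89.3 CPM with DAC, 82.5, 92.1 and 86.9 CPM with SFN, and 81.3, 92.6 and 82.3 CPM with DAC + SFN. The groups overlapped, and Psmb5 was the one subunit with an estimate above 0 with DAC + SFN, 0.089 (95% interval −0.041 to 0.22, adjusted p = 0.287). With SFN its log2 fold change was 0.12 (95% interval −0.011 to 0.25, adjusted p = 0.214). Neither change passed the test, and a difference between Psmb5 and the other subunits was not tested.

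Of the 3 assembly chaperones, Psmd10 was called with DAC + SFN, with the widest error among the subunits (SE 0.10). Psmd10, also known as gankyrin, had 25.9, 23.6 and 21.7 CPM in control and 18.9, 17.5 and 21.7 CPM with DAC + SFN, and it was lower with a log2 fold change of −0.29 (adjusted p = 0.0389). Its replicate 3 pair differed by 0.0027 on the log2 scale, so the fall rested on replicates 1 and 2. Psmd5 and Psmd9 had estimates of −0.11 and −0.050 that did not pass.

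Compared to DAC alone, DAC + SFN was lower in 13 of 34 subunits and higher in 0, 38.2% where 6.60% of all genes were lower and 9.55% were higher. The median log2 fold change was −0.18, with 33 of 34 estimates below 0 (49.8% of all genes), and it was −0.23, −0.17 and −0.14 in the 3 replicate pairs. Psmc2 had the smallest adjusted p-value, with a log2 fold change of −0.31 (adjusted p = 0.00471), followed by Psma4 with −0.28 (adjusted p = 0.00523) and Psmc3 with −0.24 (adjusted p = 0.00603). The called genes were 4 alpha, 2 beta, 4 ATPase and 3 non-ATPase subunits. Psmd1, called in both comparisons of SFN treatments with control, had an estimate of −0.15 here (adjusted p = 0.0674). All 3 DAC + SFN values lay below all 3 DAC values for 21 subunits (8.98% of all genes). Fewer subunits were called without DAC replicate 1 (5), DAC + SFN replicate 1 (6), DAC replicate 2 or DAC + SFN replicate 2 (7 each), and 0 were without the replicate block or without all samples of replicate 1. With all samples of replicate 2 left out 5 were called, and with only the samples of these groups 1. A correction for GC content gave 25, and one for transcript length 7.

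Compared to SFN alone, DAC + SFN had 0 of 34 subunits called, where 0.670% of all genes were lower and 0.937% were higher, 1.61% in all. The median log2 fold change was −0.093, with 29 estimates below 0 (48.7% of all genes), and 8 subunits had an unadjusted p-value under 0.05, where 17.8% of all genes did. DESeq2 also called 0. Without DAC + SFN replicate 3, 3 subunits were called, and with only the samples of these groups 5 were, all lower. The lowest estimate was that of Psmb2, −0.18 (95% interval −0.31 to −0.045, adjusted p = 0.148), and the highest that of Psmd11, 0.062. A correction for transcript length brought the median to −0.049.

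The interaction of DAC and SFN asks whether SFN acted differently with DAC than without. It was called for 0 of 34 subunits and for 0% of all genes, with 0 subunits and 5.87% of all genes at an unadjusted p-value under 0.05, and DESeq2 called 0 subunits. The median of the interaction over the subunits was −0.081 on the log2 scale, from −0.17 for Psma4 (95% interval −0.35 to 0.0021) to 0.13 for Psmd1 (95% interval −0.031 to 0.30). With a correction for transcript length the median was 0.0045, so its direction depended on that choice. Across the 34 subunits, the SFN effect without DAC and that with DAC were correlated with Pearson's r of 0.566 and Spearman's rho of 0.491. The points come from separate samples but share the replicate numbers and the gene's own counts, and genes are not independent replicates.

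**Figure D4:**
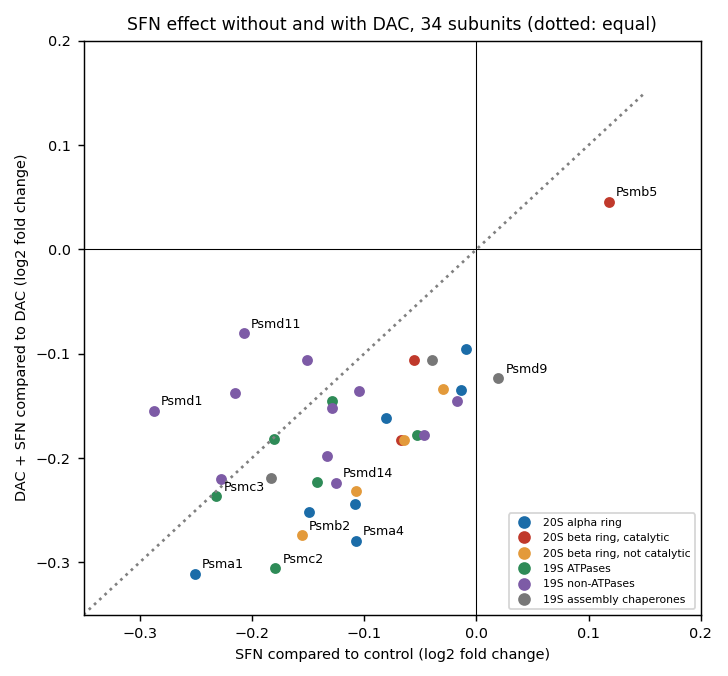
Log2 fold change of the 34 subunits with SFN compared to control (x axis) and with DAC + SFN compared to DAC (y axis), coloured by role, with a dotted line where both are equal. Psmb5 is the only gene above 0 on both axes, with 0.12 and 0.046, and Psma1 is low on both, with −0.25 and −0.31.

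The replicate numbers themselves differed for some subunits. In the same model, 12 of 34 subunits differed between replicate numbers at an adjusted p-value under 0.05, where 33.9% of all genes did. The count was 4 without control replicate 2, 5 without DAC + SFN replicate 2, 6 without control replicate 1, and 7 without control replicate 3, DAC replicate 2 or SFN replicate 1. Replicate 2 had the highest mean level in 11 of these 12, and replicate 3 in Psmb4. Psmd8 differed most (adjusted p = 3.33e-05), with 423, 550.0 and 414 CPM in control, 444, 560 and 458 CPM with DAC, 374, 505 and 390 CPM with SFN, and 420 (replicate 1), 516 (replicate 2) and 383 (replicate 3) CPM with DAC + SFN. Replicate 2 stood apart in every group, by 0.37 on the log2 scale from the mean of the other replicates, while the groups overlapped. The library numbers in the labels run with the replicate number, so a batch of library preparation cannot be told apart from the replicate.

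Markers of other cell types were checked beside these changes. Among the leukocyte markers, Cd68 was above the filter, and it rose with SFN (log2 fold change 1.11, adjusted p = 0.000729) and with DAC + SFN (1.55, adjusted p = 1.98e-05). The list summed to between 2.38 and 4.69 CPM in control, 3.98 and 5.86 CPM with DAC, 6.12 and 8.79 CPM with SFN, and 8.58 and 10.95 CPM with DAC + SFN. Ptprc, Cd3e and Itgam had 0 to 3 counts per library and Adgre1 had 0 counts in all libraries. Of the 5 fibroblast markers, Dcn and Lum had 0 to 3 counts, and Pdgfra fell with SFN (−0.84, adjusted p = 0.0240) and with DAC + SFN (−0.73, adjusted p = 0.0249). Col1a1 and Col1a2 were not called compared to control, and Col1a1 had an estimate above 0 with DAC + SFN (0.16). Compared to DAC alone, Col1a2 was lower with DAC + SFN (−0.71, adjusted p = 0.0493). The fibroblast sum was between 19.1 and 28.0 CPM in replicate 2, between 63.6 and 93.0 CPM in replicate 1 and between 253 and 375 CPM in replicate 3, and Col1a1 had the most counts of the list in every library. Of the 7 melanocyte markers, Pmel (−0.36, adjusted p = 0.0129) and Tyrp1 (−0.17, adjusted p = 0.0478) fell with DAC + SFN, and 0 with SFN. Of all genes, 14.7% were lower with DAC + SFN and 5.65% with SFN. With DAC + SFN, 3 of the 7 markers had estimates above 0, the highest that of Tyr (0.093), and 0 were called higher. Compared to DAC alone, Tyr was higher (0.16, adjusted p = 0.0442). The part of these in the subunit levels was not tested.

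Other genes of the pathway did not all follow the subunits. Adrm1, the 19S ubiquitin receptor Rpn13, and Shfm1, a small lid subunit, had log2 fold changes of −0.23 (adjusted p = 0.0506) and −0.18 (adjusted p = 0.0750) with DAC + SFN. Compared to DAC alone, Adrm1 was lower (−0.31, adjusted p = 0.0206). Of the 5 chaperones that assemble the 20S core, Psmg1 was lower with DAC + SFN (−0.26, adjusted p = 0.0400), and Pomp had −0.037 with DAC + SFN and 0.16 with SFN (adjusted p = 0.0799). The list of activators and the inhibitor (Psme1 to Psme4 and Psmf1, 5 genes) had 0 called by edgeR and 0 at an unadjusted p-value under 0.05, where 31.6% of all genes were called in either direction, with estimates from −0.18 for Psme1 to 0.10 for Psme2.

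The immunoproteasome genes left out of the set were low. Psmb8 had 0 to 22 counts per library and Psmb9 had 3 to 20, and neither was tested. Psmb10 had a mean of 14.8 ± 1.89 CPM in control and 17.3 ± 2.02 CPM with DAC + SFN (SD, n = 3), a log2 fold change of 0.23 (adjusted p = 0.250).

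Among 8 proteins bound to the 19S particle, the deubiquitinase Uchl5 (−0.24, adjusted p = 0.0255), the thioredoxin-like Txnl1 (−0.17, adjusted p = 0.0366) and the zinc finger protein Zfand5 (−0.20, adjusted p = 0.0462) were lower with DAC + SFN. The ubiquitin ligase Ube3c was higher (0.21, adjusted p = 0.0110), and the other 4 were not called. Of all genes, 14.7% were lower with DAC + SFN and 31.6% were called in either direction. The ubiquitin-activating enzyme gene Uba1 rose by 0.18 (adjusted p = 0.0176) with DAC + SFN, where 17.0% of all genes were higher. With SFN, 0 of the 8 genes of bound proteins were called, where 13.9% of all genes were called in either direction, and Uba1 was not called.

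The transcripts of the factors tied to the subunit genes moved little, and targets of NFE2L2 moved much. Nfe2l1 had 292, 282 and 295 CPM in control and 346, 297 and 319 CPM with DAC + SFN, a log2 fold change of 0.14 (adjusted p = 0.0503). Nfe2l2 had 158, 193 and 153 CPM in control and 139, 144 and 149 CPM with DAC + SFN, and was lower by a log2 fold change of −0.22 (adjusted p = 0.0260). In the list of 9 genes of this axis, the partner genes Mafk (0.49, adjusted p = 0.00254) and Maff (0.78, adjusted p = 0.0359) were higher. With Nfe2l2, 3 of the 9 were called, a share near the 31.6% of all genes. All 7 NFE2L2 target enzymes rose with DAC + SFN, where 17.0% of all genes were higher. With SFN, 6 of 7 rose, where 8.27% of all genes were higher. Nqo1, a quinone reductase, had 7.45, 8.78 and 9.04 CPM in control and 38.6, 33.5 and 38.4 CPM with DAC + SFN, a log2 fold change of 2.12 (adjusted p = 3.19e-07). Its groups lay far apart, on a scale that none of the subunits reached. How active the NFE2L1 and NFE2L2 proteins were was not measured.

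**Figure D5:**
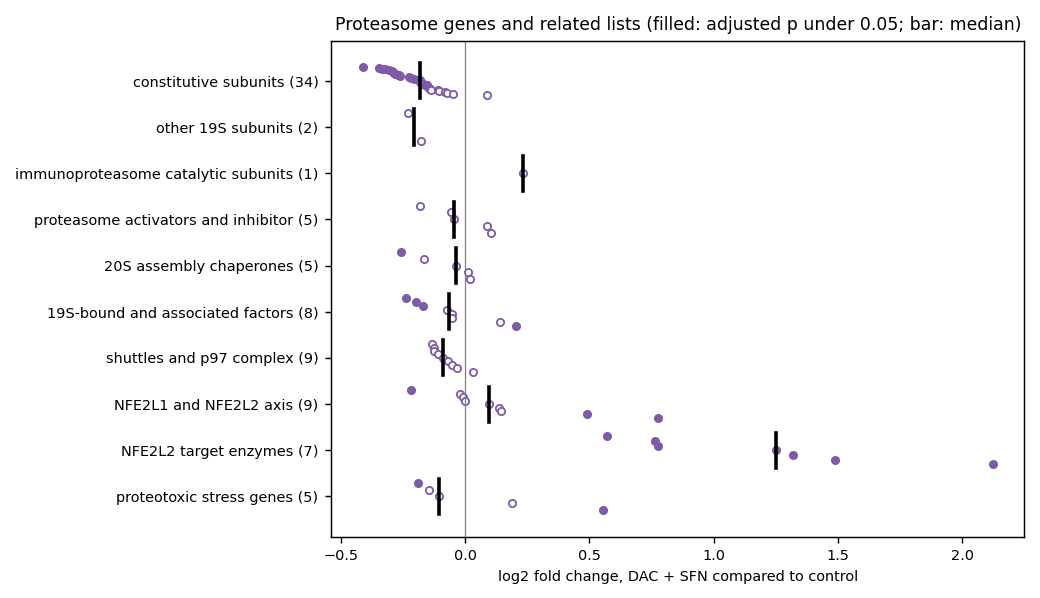
Log2 fold change with DAC + SFN compared to control for the 34 constitutive subunits and 9 related gene lists, with the number of tested genes in parentheses. Each point is a gene, filled points have an adjusted p-value under 0.05, and the bar is the list's median. The subunits centre on −0.18, and the NFE2L2 target enzymes on 1.25.

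The promoter sequences of the subunits were searched for the antioxidant response element core TGACNNNGC and for the CCAAT box, on both strands, from 250 bases before to 50 bases after the start. RefSeq windows on GRCm38.p6 (the mm10 build) matched 29 of the 36 genes, and the windows of Psma8, Psmb1, Psmb2, Psmb7, Psmc3, Psmd3 and Psmd7 were not analysed here. TGACNNNGC was in the windows of 5 genes, Psmb5, Psmb6, Psmc6, Psmd12 and Psmd9, or 16.1% of the 31 windows of these genes, where 12.4% of all windows of this length had it. CCAAT was in the windows of 12 genes (38.7% of the windows), where 37.4% of all windows had it. The shares were near those of all windows. The sites are shown since they are the stretches where a factor of the NFE2L family could be looked for, with the motif in capitals and 10 bases on each side where the window upstream of the start allows.
Psmb5: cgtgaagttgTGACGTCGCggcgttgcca
Psmb6: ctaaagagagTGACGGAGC
Psmc6: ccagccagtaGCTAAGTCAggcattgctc
Psmd12: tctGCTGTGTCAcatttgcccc
Psmd9: atctagccggTGACCCCGCccacttccaa

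These lie at chr14:54618024-54618052 (minus strand) for Psmb5, chr11:70525338-70525356 (plus strand) for Psmb6, chr14:45329587-45329615 (plus strand) for Psmc6, chr11:107479278-107479299 (plus strand) for Psmd12 and chr5:123228149-123228177 (plus strand) for Psmd9. In Psmc6 and Psmd12 the motif reads on the opposite strand. Of these 5 genes, Psmc6 and Psmd12 were lower with DAC + SFN and Psmb5, Psmb6 and Psmd9 were not called. A match is a description of the sequence and no evidence that a factor was bound.

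The 250 bases before the start are given for Psmb5 and Psma1, the subunits with the highest and the lowest estimate with DAC + SFN. Psmb5 (chr14:54617996-54618245, minus strand) has its TGACNNNGC at position −47 from the start, and no CCAAT box was found in its window. Psma1 (chr7:114276117-114276366, minus strand) has CCAAT at position −98 and its reverse complement at −126, and no TGACNNNGC was found. The motifs are in capitals.
Psmb5: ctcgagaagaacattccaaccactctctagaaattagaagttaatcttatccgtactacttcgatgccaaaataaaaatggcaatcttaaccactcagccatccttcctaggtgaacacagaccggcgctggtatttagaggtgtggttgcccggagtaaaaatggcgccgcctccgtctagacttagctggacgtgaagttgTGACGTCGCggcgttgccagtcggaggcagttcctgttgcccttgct
Psma1: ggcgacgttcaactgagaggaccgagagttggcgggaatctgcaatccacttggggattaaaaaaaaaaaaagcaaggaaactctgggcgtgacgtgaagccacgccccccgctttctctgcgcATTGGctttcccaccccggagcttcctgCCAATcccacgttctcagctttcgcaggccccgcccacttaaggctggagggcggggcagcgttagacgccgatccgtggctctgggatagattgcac

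Some subunit counts can hold reads of neighbours. In GENCODE M21, exons of 2 subunits overlap exons of another gene on the same strand, Psmb5 with Mir686 and Psmd1 with Gm21972, and 8 overlap exons on the opposite strand, among them Psmb7 with Nek6 over 405 bases, Psmc3 with Slc39a13 and Psmd9 with Gm26745 over 1849 bases. The library kit keeps the strand, but whether the counting used it is not given in the sources used here, so reads of such pairs may be mixed. GENCODE also lists 4 pseudogenes with a symbol starting with Psm. Over the 34 subunits, the log2 fold change with DAC + SFN had a Pearson correlation of 0.374 with the GC content of the transcript, −0.0098 with its length and −0.10 with the mean level.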

How the data were processed

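RNA-seq was performed on B16F10 cells of 4 groups with 3 replicates each. Per the labels and the study's methods, the authors checked reads with FastQC 0.11.7, trimmed them with Trimmomatic 0.38, aligned them to mm10 with TopHat2 2.1.1 and counted uniquely aligned reads per gene with HTSeq. The annotation and strand setting used for counting are not given in the sources used here. The deposited values are raw counts per gene symbol. Totals of 15880957 to 27291436 counts put 1 CPM at 15.9 to 27.3 counts.

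Groups and replicate numbers were taken from the labels. Genes that reached 1 CPM in 3 or more libraries were kept and TMM-normalized, and all 12 samples entered 1 model in edgeR 4.0.16 (R 4.3.3, quasi-likelihood F-test, two-sided), with the replicate number as a block, since the study corrects for a batch. Same-numbered samples deviated together from their group means (correlation 0.270 to 0.732 over 18 pairs, mean 0.544), which is the check of the pairing. Over 36 pairs with different numbers, the mean correlation was −0.267. Their highest value, 0.282, was above the lowest same-numbered value, so the ranges overlapped. P-values were adjusted by Benjamini-Hochberg over all 11638 genes, and a gene was called at 0.05. Fold changes carry a prior count of 0.125 and replicate pair differences a prior count of 2. The 95% intervals use 14.7 degrees of freedom. The fits were also run on simulated data, and the outcome is not reported here.

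The subunits, companion lists and tests were chosen with earlier results of these data known. The genes described in every sample are the 3 active-site subunits and the 6 subunits with the smallest adjusted p-values with DAC + SFN. Psmd8 was added after its values were seen, for its difference between replicates. Alternatives were DESeq2 1.42.0, its size factors, no TMM, the version 4 fit, other filters, no block, only the groups compared, leaving out samples, and corrections for GC content, length and level. Transcripts came from GENCODE M21, where 95.7% of symbols had a gene, and promoters from RefSeq. Plots were made in Python 3.11.15 with matplotlib 3.10.9. Paaf1 was not analysed here, and some results for single genes are left out.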

Additional observations from a re-analysis of the deposited data

How the results depend on the processing

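Size factors of DESeq2, library totals without TMM, DESeq2's test, the version 4 fit of edgeR, no filter and a filter of 10 counts left the counts of called subunits within 1.5 times, with 20 to 25 lower with DAC + SFN compared to control. Without the replicate block, 0 subunits were lower with SFN, 9 with DAC + SFN and 0 compared to DAC. With only the samples of the groups compared, 14 were lower with DAC + SFN, 1 compared to DAC and 5 compared to SFN. At a fold change above 2, 0, 0 and 0 subunits passed for SFN, DAC + SFN and DAC + SFN compared to DAC. Corrections chosen after seeing the data also moved counts. With the GC correction, 12 were lower with SFN and 25 compared to DAC, and with the length correction 7 were lower compared to DAC, while the medians were −0.049 compared to SFN and 0.0045 for the interaction. The cause was not tested.

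Leaving out 1 sample, or all 4 of a replicate number, gave 0 to 11 lower subunits with SFN, 6 to 24 with DAC + SFN, 0 to 17 compared to DAC, 0 to 3 compared to SFN and 4 to 14 that differed between replicate numbers, always with 0 higher. Without all 4 samples of replicates 1, 2 and 3, 6, 8 and 24 were lower with DAC + SFN, and 0, 0 and 11 with SFN. The median with DAC + SFN stayed between −0.23 and −0.17. Estimates near 0 that were not called changed sign. With DAC, Psmb7 lay between −0.042 and 0.060, Psmb6 between −0.084 and 0.019 and Psmb5 between −0.011 and 0.074 when samples were left out. Psmb7 was −0.000700 without a filter and −0.019 with the length correction, and Psmb5 −0.0065 with the GC correction. Compared to DAC, Psmb5 with DAC + SFN lay between −0.015 and 0.12. With 3 replicates a group, log2 changes near the standard error were not detectable.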

Other observations

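Genes that bring ubiquitinated proteins to the proteasome had 0 of 9 called with DAC + SFN compared to control, where 31.6% of all genes were called in either direction (edgeR), and 2 of 9 had an unadjusted p-value under 0.05. Vcp, the p97 ATPase that extracts proteins, had a log2 fold change of −0.088 (adjusted p = 0.206). With SFN, its cofactor gene Nploc4 was lower (−0.22, adjusted p = 0.0221), and the other 8 were not called, with the ubiquilin gene Ubqln2 at −0.23 (adjusted p = 0.0531).

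Of 5 tested genes that respond to misfolded protein, Sqstm1, an autophagy receptor that is also a target of NFE2L2, rose with SFN (0.37, adjusted p = 0.0177) and with DAC + SFN (0.55, adjusted p = 0.000580). Hsph1, a heat shock protein gene, was lower with DAC + SFN (−0.19, adjusted p = 0.0344). Hspa1b (−0.11), Dnajb1 (−0.14) and Bag3 (0.19, adjusted p = 0.0614) were not called with DAC + SFN, where 31.6% of all genes were called in either direction. With SFN, Sqstm1 was the only gene of the list called, where 13.9% of all genes were.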
